A study of Oryza sativa with 6 samples.

Results

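The 300 brightest transcripts of wild type rice endosperm were taken from 57194 rice probe sets, a probe set being the group of short array probes that reports 1 transcript. They were the 300 with the highest mean log2 signal over the 3 wild type arrays, after the 187 control probe sets had been set aside, and the mutant arrays had no part in the choice. The material was endosperm at 9 days after flowering from field-grown plants. Dongjin, a japonica cultivar, was the wild type, and osbzip58-1 was a mutant in the Dongjin background, with 3 arrays of each genotype that the labels call biological replicates. Total RNA was converted to biotin-labelled cRNA with a 3' in vitro transcription kit, so 1 array measured 1 RNA sample, and 1 mutant allele was compared. The p-values measure the spread between these arrays, and their small number limits the precision of every value.

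At this stage the starchy endosperm fills with starch and with storage proteins. The main rice storage proteins are glutelins, prolamins and globulins. They enter the endoplasmic reticulum, where the chaperone BiP and protein disulfide isomerases help them fold, and are packed into protein bodies. Starch is built from ADP-glucose by granule-bound and soluble starch synthases and by branching enzymes. OsbZIP58 is a transcription factor of the basic leucine zipper family that binds promoters of storage protein and starch synthesis genes in the rice endosperm. No probe set could be matched to OsbZIP58 itself, so the check of the labels by the targeted gene was not made here.

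The choice rested on the wild type values, so the wild type levels and ranks are a description. Wild type means ran from 14.44 at rank 300 to 15.97 at rank 1. The last member, Os.3350.1.S2_a_at of the gene LOC4348524, and the first probe set outside, Os.9238.2.S1_at of LOC4325302, both had a mean of 14.44, so the border has no natural gap. A member with a chance high value on the wild type arrays is more likely to be chosen, which by itself favours lower mutant values. Brightness also depends on the probes, so a rank or a share of signal is not a count of molecules. In whole-tissue RNA, fewer cells of a type and less RNA per cell cannot be told apart.

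The members were not 300 separate genes. They carried 249 ID stems (the part of the ID before the version and strand), and 40 stems held 91 of them. The platform annotation gave 1 gene for 246 members, which came to 206 genes, several genes for 12 and no gene for 42. Of the members 22.0% had IDs ending in _x_at, against 12.5% of all rice probe sets. This suffix marks probe sets with probes that also match other transcripts. Another 14% ended in _s_at, against 4.92%, a suffix for probes shared by several transcripts. A member of a family can therefore report its relatives as well. Only 3.67% had the prefix OsAffx, against 44.6% of all rice probe sets.

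The tissue label was read against marker genes. The starchy endosperm markers GLUA2 and Wx were members at ranks 19 and 18. CAB2R, a chlorophyll-binding protein of green tissue, was also a member, at rank 92. Its 3 wild type values were 15.32, 14.91 and 15.24, its 3 mutant values were 14.88, 14.91 and 14.57, and its log2 change was -0.37 (limma adjusted p = 0.144). The dimmer CAB2R probe set Os.7941.2.S1_s_at differed by -0.18. RBCS, the small subunit of the carbon-fixing enzyme of leaves, had 3 tested probe sets with mixed directions. The brightest reached 12.52 in wild type and 12.35 in the mutant, a difference of -0.17, while the dimmer ones differed by 0.38 and 0.43. Over the green tissue list 3 of 5 tested probe sets with a gene of their own were lower in the mutant, 2 were higher and 0 passed the test. The 4 tested probe sets that RBCS1 shares with other genes differed by 0.21 to 0.38, also without passing. LEA3, of the embryo and aleurone, reached 14.19 and 14.06 and did not pass either. OLE18, of the same list, had 2 members, each of which matches 2 genes. Os.12251.1.S1_at at rank 109 differed by -0.29 (adjusted p = 0.280), and Os.57490.1.S1_x_at at rank 274 fell by 0.35 (adjusted p = 0.0497).

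Nearly all members were lower in osbzip58-1 on the deposited scale. Of the 300, 296 had a lower mean in the mutant and 4 a higher one, with a median log2 change of -0.37 and quartiles of -0.45 and -0.27. The median over all 34883 tested probe sets was 0.0027. Each of the 300 passed the filter on low values. In a limma fit over all tested probe sets, 94 members fell and 0 rose (adjusted p under 0.05), where 3.13% of all tested probe sets fell and 3.2% rose. At an unadjusted p under 0.05 the members' counts were 243 and 0. The share of all tested probe sets at that cut is not given here, so these counts cannot be set against it. The genotypes did not overlap in 251 members, all lower in the mutant, where 13.9% of all tested probe sets were lower without overlap and 13.8% higher. The count of 94 was unstable: it was 31, 48 and 22 without wild type replicates 1, 2 and 3, 60 without mutant replicate 3, and 1 in a fit without a trend of variance on signal. Of all tested probe sets 1.21%, 1.74%, 0.784%, 2.32% and 0.143% fell in those 5 fits.

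The shift was narrow for most members and wide for a few. Between -0.6 and -0.2 lay 219 of the 300 changes, with a median standard error of 0.106. At the other end, 12 members fell by more than 2-fold, and all 12 passed the test. Of all tested probe sets 0.88% passed with a fall of that size. The remaining 82 calls were members with changes between -1 and 0, and the called members had a median of -0.51 against -0.31 for the others.

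**Figure D1:**
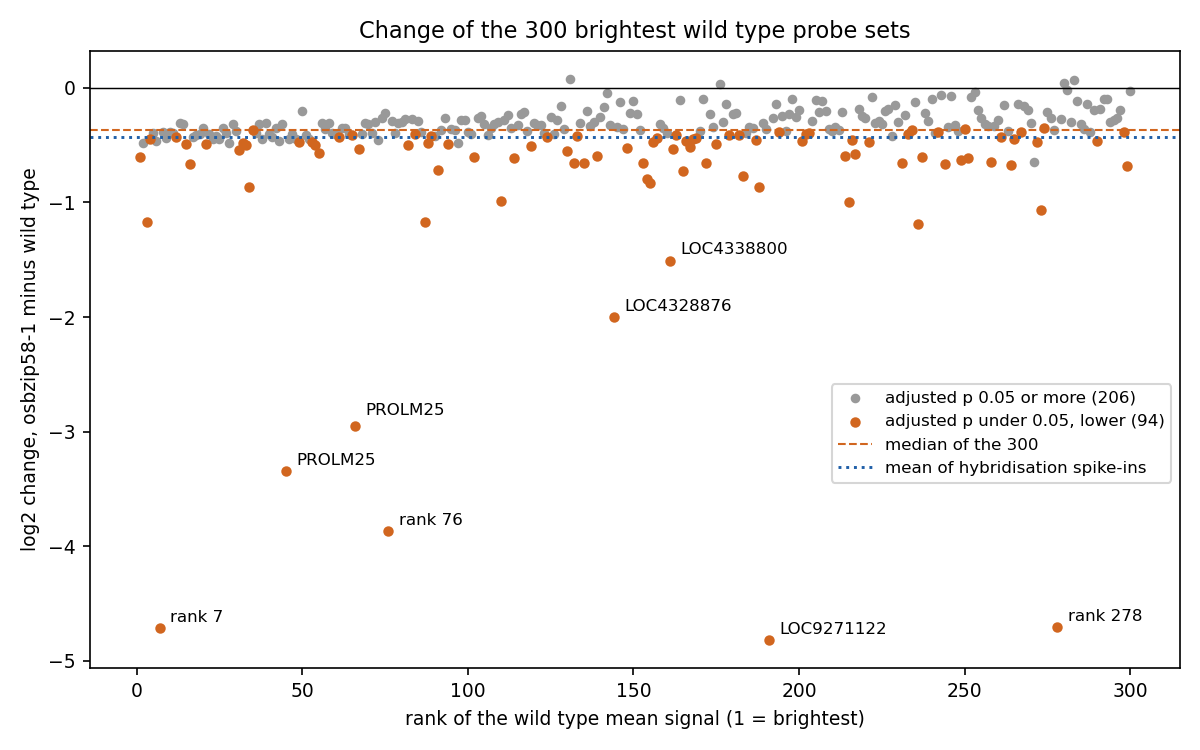
Log2 change, osbzip58-1 minus wild type, of each of the 300 members (y axis) against its wild type rank (x axis). Orange points are the 94 members with an adjusted p under 0.05, grey points the 206 others. The dashed line is the members' median of -0.37, and the dotted line is the mean of 27 hybridisation spike-ins at -0.42. Most members form a band around both lines, and 12 members lie below -1.

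The individual calls differed in how well they held. Of 142 probe sets described one by one or in named families and lists, 21 of them outside the 300, 47 fell, 4 of them outside the 300. Of these 47, 15 passed in every fit that left out 1 array, and 15 passed as lower on each of the 4 other scales described next. Both held for 12: the PROLM25 pair, Os.8177.1.S1_a_at, Os.4414.1.S1_x_at, OsAffx.22046.2.S1_at, Os.8502.5.S1_x_at, LOC9271122, LOC4338800, LOC4329321, the small heat shock gene HSP17.9A and the kinase genes SNRK1B and OSK3. The other 35, GLUA1, BIP1, SSI and the Wx and Sbe1 probe sets among them, lost the call in at least 1 such fit. Without a variance trend 1 of the 47 passed, a PROLM25 probe set.

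The band sat close to the control transcripts that are added in known amount at hybridisation. The median of the members was 14.88, 14.91 and 14.92 on wild type arrays 1 to 3 and 14.40, 14.64 and 14.57 on mutant arrays 1 to 3. The mean of the 27 spike-in probe sets was 12.44, 12.50 and 12.49 in wild type and 11.92, 12.11 and 12.12 in the mutant, a difference of -0.42. In both measures every mutant array was below every wild type array, and mutant replicate 1 was the lowest. The 12 brightest spike-ins, nearest to the members in level, differed by -0.44. The members' median minus the spike-in mean was 2.43 ± 0.0121 for wild type and 2.49 ± 0.0367 for the mutant (mean ± SD, n = 3 each). The brightest value of an array was 15.97 ± 0.0619 in wild type and 15.49 ± 0.206 in the mutant.

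The direction of the band thus depended on how the arrays were scaled. The members' median change was -0.25 after median centring of the arrays, -0.17 after cyclic loess, -0.017 after quantile normalization and 0.058 after scaling to the spike-ins, with all-probe-set medians of 0.12, 0.00020, 0.0026 and 0.43. After median centring 32 members fell and 0 rose, against 1.32% and 3.75% of all tested probe sets. After cyclic loess 44 fell and 0 rose, against 3.02% and 2.93%. After quantile normalization 27 fell and 4 rose, against 2.89% and 2.65%. On the spike-in scale 21 fell and 27 rose, against 0.972% and 26.1%, so rises were a smaller share of the members than of all tested probe sets there. The deposited values were already scaled by MAS5, which sets the arrays to a common mean, so a change in total RNA cannot be seen. The part of these scalings in the members' shift was not tested further. The spike-in scale adds 0.42 to every deposited change, so any change given below that lies between -0.42 and 0 has the opposite sign on that scale.

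The 12 members that fell by more than 2-fold stayed lower on every one of the 4 other scales, with changes of -0.64 or below. Between 8 and 11 of them remained below -1 on those scales. They carried 10 ID stems. The annotation gave 1 gene for 7 of them, 6 genes in all, and none for the other 5. The 6 largest falls were all _x_at probe sets, so each can also report transcripts with matching sequence.

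Among the 12, the named gene was PROLM25, which encodes a prolamin, the alcohol-soluble class of seed storage proteins. Its probe set at rank 45, Os.11099.2.S1_x_at, had signals of 15.32, 15.47 and 15.42 in wild type and 11.24, 12.38 and 12.57 in osbzip58-1. The 3 mutant values lay far below the 3 wild type values. The change was -3.34 ± 0.281 (SE), about 10.1-fold lower, with a limma adjusted p of 0.000524. The second PROLM25 probe set, Os.11099.1.S1_x_at at rank 66, had 15.26, 15.23 and 15.32 in wild type and 11.68, 12.48 and 12.81 in the mutant. It fell by 2.95 ± 0.233 (SE), about 7.72-fold, with an adjusted p of 0.000357, so both probe sets of the gene gave the same direction and a like size. In osbzip58-1 the PROLM25 probe sets ranked 2431 and 1984. Of 16 fits, the one above and 15 with other settings, the rank 66 probe set passed in all 16 and the rank 45 probe set in 15.

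Some members without a named gene fell further than PROLM25. Os.8502.7.S1_x_at, at rank 7 and with no gene in the annotation, had 15.68, 15.65 and 15.73 in wild type and 7.46, 13.18 and 12.27 in the mutant. The groups did not overlap, but the mutant values spread widely. The change was -4.71 ± 1.15 (SE) with an adjusted p of 0.0419. Without mutant replicate 1, the lowest of the 3, it was -2.96 with an adjusted p of 0.000244, and without mutant replicate 3 the adjusted p was 0.0551. Over the same 16 fits it passed in 9, with adjusted p-values from 0.000244 to 0.229. Its neighbour by ID, Os.8502.5.S1_x_at at rank 278, had 14.47, 14.73 and 14.27 in wild type and 7.83, 10.65 and 10.88 in the mutant. It fell by 4.70 ± 0.643 (SE; adjusted p = 0.00485), with a change of -3.73 without mutant replicate 1. Mutant replicate 1 was the lowest array for both probe sets of the stem, while the order of the other arrays differed between them.

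The largest fall of all members was that of Os.38512.1.S1_x_at, at rank 191, of the gene LOC9271122. Its signals were 14.62, 14.86 and 14.77 in wild type and 7.79, 11.10 and 10.90 in the mutant, a change of -4.82 ± 0.699 (SE) with an adjusted p of 0.00618. Mutant replicate 1 was again far below the other mutant arrays, and the change was -3.75 without it. Os.4414.1.S1_x_at, at rank 76 and with no gene, had 15.23, 15.25 and 15.23 in wild type and 10.61, 11.15 and 12.35 in the mutant. It fell by 3.87 ± 0.341 (SE; adjusted p = 0.000692), with no overlap.

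The other falls of more than 2-fold were smaller. LOC4328876, at rank 144, had 14.90, 15.07 and 14.78 in wild type and 12.67, 12.16 and 13.93 in the mutant, a change of -2.0 ± 0.353 (SE; adjusted p = 0.0132). The adjusted p was 0.0527 and 0.0592 without wild type replicates 1 and 3. It lies 2 places from the glutelin gene GLUD1 in the gene order of the reference annotation, and GLUD1 changed by -0.40 (adjusted p = 0.0947). LOC4338800 at rank 161 changed by -1.51 (adjusted p = 0.00233) and LOC4329321 at rank 236 by -1.19 (adjusted p = 0.00106). Os.8177.1.S1_a_at, the third brightest member and without a gene, had 15.76, 15.80 and 15.88 in wild type and 14.20, 14.89 and 14.86 in the mutant. It fell by 1.17 (adjusted p = 0.00584), from rank 3 to rank 129. OsAffx.22046.2.S1_at at rank 87 fell by 1.17 (adjusted p = 0.00782). The probe set Os.11039.2.S1_x_at of LOC9267997, at rank 273, fell by 1.07 (adjusted p = 0.0091, and 0.0559 without wild type replicate 3), and the other probe set of this gene among the members by 0.99.

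**Figure D2:**
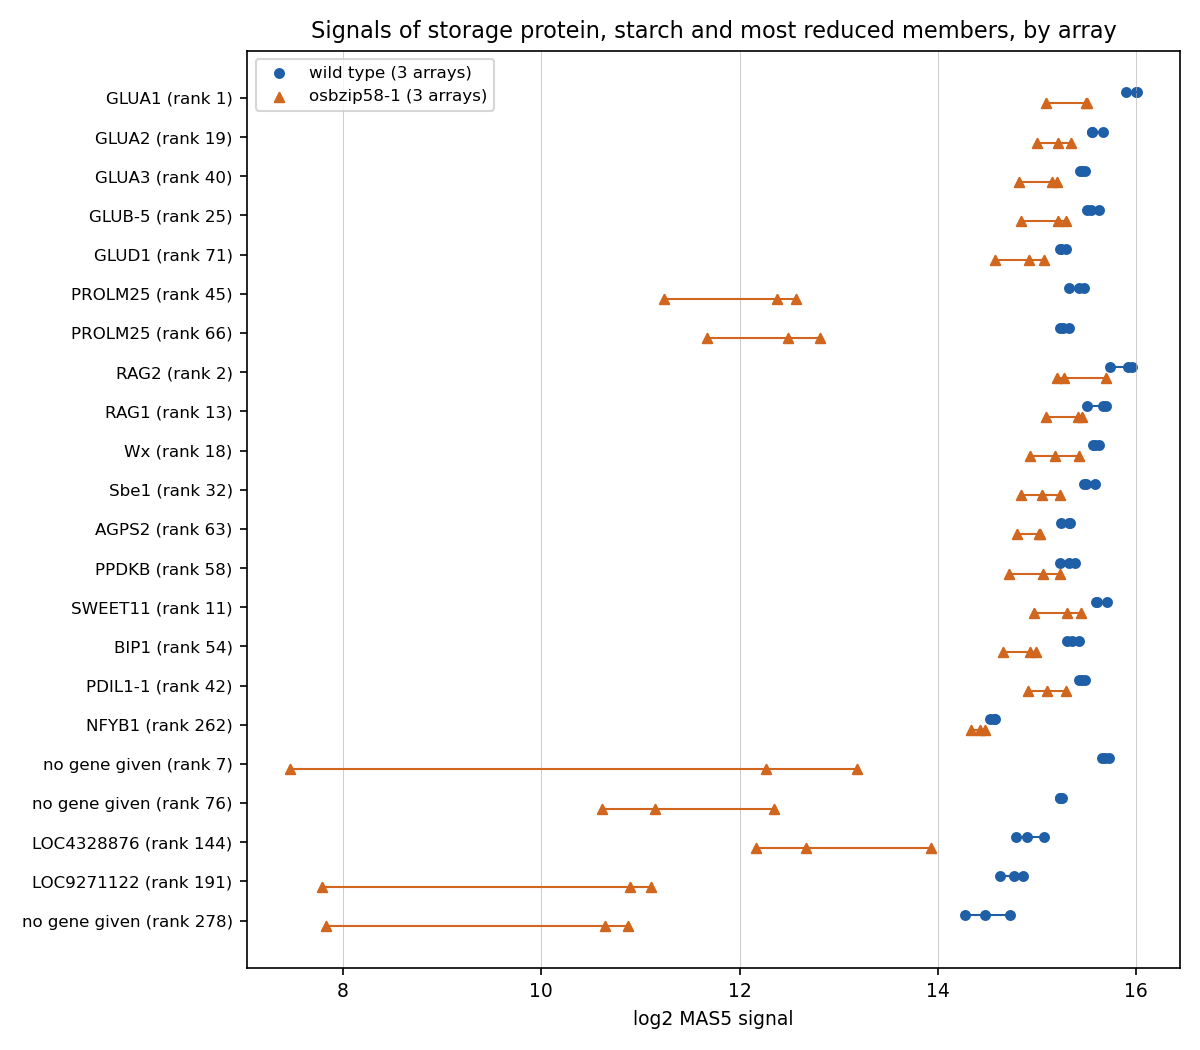
Log2 MAS5 signal (x axis) of storage protein, starch, transport and folding genes among the members and of the largest falls, with their wild type rank on the y axis. Blue circles are the 3 wild type arrays and orange triangles the 3 osbzip58-1 arrays, and lines join the lowest and highest array of a genotype. PROLM25, LOC4328876, LOC9271122 and the members at ranks 7, 76 and 278 have mutant means about 2 to 5 log2 units below wild type, while the glutelin, allergen and starch genes have means within 1 unit.

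The glutelins, the most abundant storage proteins of rice, were among the brightest members. The brightest of all 300 was the GLUA1 probe set OsAffx.27508.71.S1_s_at, with 16.01, 15.90 and 15.99 in wild type and 15.09, 15.50 and 15.50 in the mutant. Every mutant value was below every wild type value, and the change was -0.60 ± 0.122 (SE; adjusted p = 0.022). GLUA2 had 15.55, 15.55 and 15.66 in wild type and 15.00, 15.34 and 15.21 in the mutant, a change of -0.41 ± 0.106 (SE; adjusted p = 0.0532). GLUA3, GLUB-5 and GLUD1 differed by -0.40, -0.45 and -0.40 without passing. Among 5 glutelin members with a gene of their own, 1 fell and 0 rose, and the 5 changes lay between -0.60 and -0.40. Their median was -0.41 as deposited, -0.29 after median centring, -0.19 after cyclic loess, -0.033 after quantile normalization and 0.019 on the spike-in scale, where the sign turned. The GLUA1 probe set remained below 0 on the spike-in scale, at -0.18. Of the 6 tested probe sets of the glutelin list with a gene of their own, 1 fell and 0 rose. The sixth, the dim GLUA2 probe set Os.5151.1.S1_at, differed by 0.011. Members of the list that match several genes were counted apart. Of them Os.22346.1.S1_x_at (GLUA1) fell by 0.43 (adjusted p = 0.0484) and Os.11372.2.S1_s_at (GLUB-4 and GLUB-5) by 0.50 (adjusted p = 0.0299). The other, Os.22346.2.S1_x_at (GLUA1), differed by -0.43 (adjusted p = 0.0781). The PROLM25 changes were -2.95 and -3.34, and the difference between the families was not tested.

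The seed allergens RAG1, RAG2 and RA5, small proteins of the alpha-amylase and trypsin inhibitor family, held 5 members. The second brightest member was the RAG2 probe set Os.5529.4.S1_x_at, with 15.91, 15.73 and 15.95 in wild type and 15.20, 15.69 and 15.27 in the mutant. The groups stood apart by a narrow margin, since mutant replicate 2 came close to wild type replicate 2. The change was -0.48 ± 0.135 (SE; adjusted p = 0.0687). The 3 RAG2 members differed by -0.48 to -0.45 and RAG1 by -0.30, and 0 of the 5 allergen members passed. On the spike-in scale the 5 lay between -0.053 and 0.12. In the reference gene order these genes stood within a run of 6 member genes that were at most 5 places apart, and the changes in that run lay between -0.48 and -0.29. RAG2 moved from rank 2 to rank 1 in osbzip58-1.

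The starch synthesis genes were present with 10 members of 4 genes. Wx, the granule-bound starch synthase that makes amylose, had 4 members between ranks 18 and 168. Its brightest, Os.11244.3.S1_x_at, had 15.57, 15.58 and 15.63 in wild type and 14.93, 15.42 and 15.18 in the mutant, a change of -0.41 (adjusted p = 0.0789). The 4 Wx changes lay between -0.44 and -0.32, and 1 of 4 passed. Sbe1, a starch branching enzyme, had 4 members with changes from -0.48 to -0.26, of which 1 passed. Its Os.22169.2.S2_a_at, with 15.47, 15.49 and 15.59 in wild type and 14.84, 15.23 and 15.05 in the mutant, fell by 0.48 ± 0.112 (SE; adjusted p = 0.0367).

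AGPS2, the small subunit of ADP-glucose pyrophosphorylase, had 15.24, 15.32 and 15.33 in wild type and 14.80, 15.02 and 15.03 in the mutant. Its change of -0.35 did not pass (adjusted p = 0.0637). PPDKB, a pyruvate orthophosphate dikinase, differed by -0.31 (adjusted p = 0.207), and its wild type replicate 2 and mutant replicate 2 both rounded to 15.23. The genotypes did not overlap in any of the 10 starch members, and 2 of 10 fell. Their median was -0.35 as deposited, -0.23 after median centring and -0.14 after cyclic loess, but 0.011 after quantile normalization and 0.073 on the spike-in scale. Of all 18 tested probe sets of the starch list 4 fell and 0 rose. Outside the 300, SSI, a soluble starch synthase at rank 374, fell by 0.61 (adjusted p = 0.0104), while SUS3 and Sus2, of sucrose synthase, differed by -0.086 and 0.10 without passing. The soluble starch synthase ALK differed by -0.23 (adjusted p = 0.305). On the spike-in scale SSI stood at -0.19, SUS3 at 0.34, Sus2 at 0.53 and ALK at 0.19.

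Folding factors of the endoplasmic reticulum held 2 members. BIP1, the lumenal chaperone, had 15.30, 15.35 and 15.43 in wild type and 14.66, 14.99 and 14.93 in the mutant. It fell by 0.50 ± 0.107 (SE; adjusted p = 0.0268) and stood at -0.077 on the spike-in scale. PDIL1-1, a protein disulfide isomerase, had 15.45, 15.42 and 15.48 in wild type and 14.91, 15.29 and 15.10 in the mutant, a change of -0.35 (adjusted p = 0.0928) that was 0.074 on the spike-in scale. PDIL2-3, another isomerase just outside at rank 306, fell by 0.51 (adjusted p = 0.0119; -0.085 on the spike-in scale), so 2 of the 3 genes on the list fell and 0 rose. The regulator NFYB1, a CCAAT-binding subunit found in endosperm, was at rank 262 with a change of -0.15 (adjusted p = 0.366), which was 0.28 on the spike-in scale.

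Members outside the lists were grouped by function once their names had been seen. Small heat shock proteins, which hold unfolding proteins in solution, were 7 members, of which 3 fell and 0 rose. HSP17.9A had 14.84, 14.93 and 14.86 in wild type and 13.98, 14.11 and 14.05 in the mutant, and fell by 0.83 ± 0.086 (SE; adjusted p = 0.00163). HSP26.7 fell by 0.66 (adjusted p = 0.0124) and HSP16.9A by 0.55 (adjusted p = 0.021). These 3 remained lower on the spike-in scale, at -0.40, -0.23 and -0.13. The median of the 7 was -0.55 as deposited and -0.13 on the spike-in scale, with -0.44, -0.37 and -0.23 on the median-centred, loess and quantile scales. HSP18.0, HSP24.1, HSP17.4 and HSP18.1 differed by -0.33, -0.35, -0.25 and -0.65 without passing. On the spike-in scale the 7 members lay between -0.40 and 0.18, so the family did not stay lower as a whole there.

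The HSP90 chaperones HSP81-1, HSP81-2 and HSP81-3 differed by -0.16, -0.29 and -0.26, and 0 of 3 passed. On the spike-in scale they lay between 0.13 and 0.27, above 0. Outside the members, HSP81-3 probe sets with a gene of their own differed by -0.17 to 0.46 and the HSP81-1 probe set Os.37616.1.S1_at by 0.66, without passing. The difference between the chaperone families was not tested.

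Cytoskeleton genes were 8 members from 5 genes. Of the 8 members, 6 fell and 0 rose. ACT7, an actin, had 2 members that fell by 0.68 and 0.64 (adjusted p = 0.00531 and 0.00489). ACT1, another actin, differed by -0.20 (adjusted p = 0.287). TubA, an alpha-tubulin, had 3 members that all fell, by 0.43 to 0.46. These TubA calls were made in only 4, 4 and 5 of 16 fits. The beta-tubulin TUBB5 differed by -0.10. ADF7, an actin-depolymerising factor, fell by 0.66 (adjusted p = 0.0178). On the spike-in scale the ACT7 members stood at -0.22 and -0.25 and TUBB5 at 0.33, so the spread between members was kept while the zero moved. The median of the 8 was -0.027 on that scale.

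The regulators were 7 members, of which 4 fell and 0 rose. SNRK1B and OSK3, kinases of the SnRK1 family that responds to sugar and energy supply, fell by 0.77 and 0.68 (adjusted p = 0.00584 and 0.00622). Their probe sets share the stem Os.338, so each may report the other's transcripts. SAP8, a zinc finger protein of the stress-associated family, fell by 0.54 (adjusted p = 0.0177), and the calcium-dependent kinase CPK23 fell by 0.47 (adjusted p = 0.0453). YAB1, a YABBY transcription factor, differed by 0.07 and was among the 4 members with a higher mutant mean. MIF1, a mini zinc finger protein, differed by -0.094, which was 0.33 on the spike-in scale. On that scale the 7 lay between -0.35 and 0.49.

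In glycolysis and sugar supply 0 of 7 members passed. SWEET11, a sucrose transporter of the filling grain, had 15.59, 15.60 and 15.70 in wild type and 14.97, 15.44 and 15.30 in the mutant, a change of -0.39 (adjusted p = 0.0958). The sucrose synthase SUS4 differed by -0.059. Eno1, an enolase, had 14.82, 14.69 and 14.90 in wild type and 14.75, 14.93 and 14.84 in the mutant, with overlap and a change of 0.038. The glycolysis members FBA3, GAPC1, GAPC3 and TPI differed by -0.31, -0.23, -0.20 and -0.37. All 7 were above 0 on the spike-in scale, the glycolysis members between 0.057 and 0.46 and SWEET11 and SUS4 at 0.033 and 0.37.

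Genes of translation were 10 members, of which 4 fell and 0 rose. GOS2, a homologue of translation initiation factor eIF1, had 1 of 2 members that fell, by 0.57 (adjusted p = 0.0193). UBQ1, a ubiquitin gene, fell by 0.54 (adjusted p = 0.00987), RPS21, of the small ribosomal subunit, by 0.48, and REFA1, an elongation factor, by 0.40 at its brighter probe set (0.021 on the spike-in scale). RPL39B and RPS27AA, of the ribosome, and QM1 did not pass. The 10 lay between -0.14 and 0.35 on the spike-in scale. Aquaporins, which conduct water across membranes, were 5 members. A PIP2-1 probe set fell by 0.41 (0.018 on the spike-in scale), while the other PIP2-1 probe set, TIP3-1, TIP1-1 and PIP1-2 differed by -0.40, -0.48, -0.40 and -0.094, a range of -0.052 to 0.33 on the spike-in scale for the 5. Redox and metal-binding proteins, among them R1C-Prx, a peroxiredoxin, and the metallothioneins MT2A and MT2C, were 9 members, and 0 passed, with changes from -0.39 to -0.14, or 0.033 to 0.29 on the spike-in scale. Of 3 chloroplast members the plastocyanin gene PETE fell, by 0.41 (adjusted p = 0.0306; 0.013 on the spike-in scale). The 2 lipid transfer members differed by -0.32 and -0.20 without passing, and by 0.11 and 0.23 on the spike-in scale. TCTP, the translationally controlled tumour protein, fell at both members, by 0.54 and 0.47, the O-methyltransferase ROMT-17 fell by 0.87 (adjusted p = 0.0326), and RINO1, a myo-inositol phosphate synthase, differed by -0.18. Outside the members, the ROMT-17 probe sets Os.7348.1.S1_at and Os.7348.2.S1_x_at fell by 1.33 and 1.25, while Os.47868.1.S1_at differed by 0.47 (adjusted p = 0.138).

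**Figure D3:**
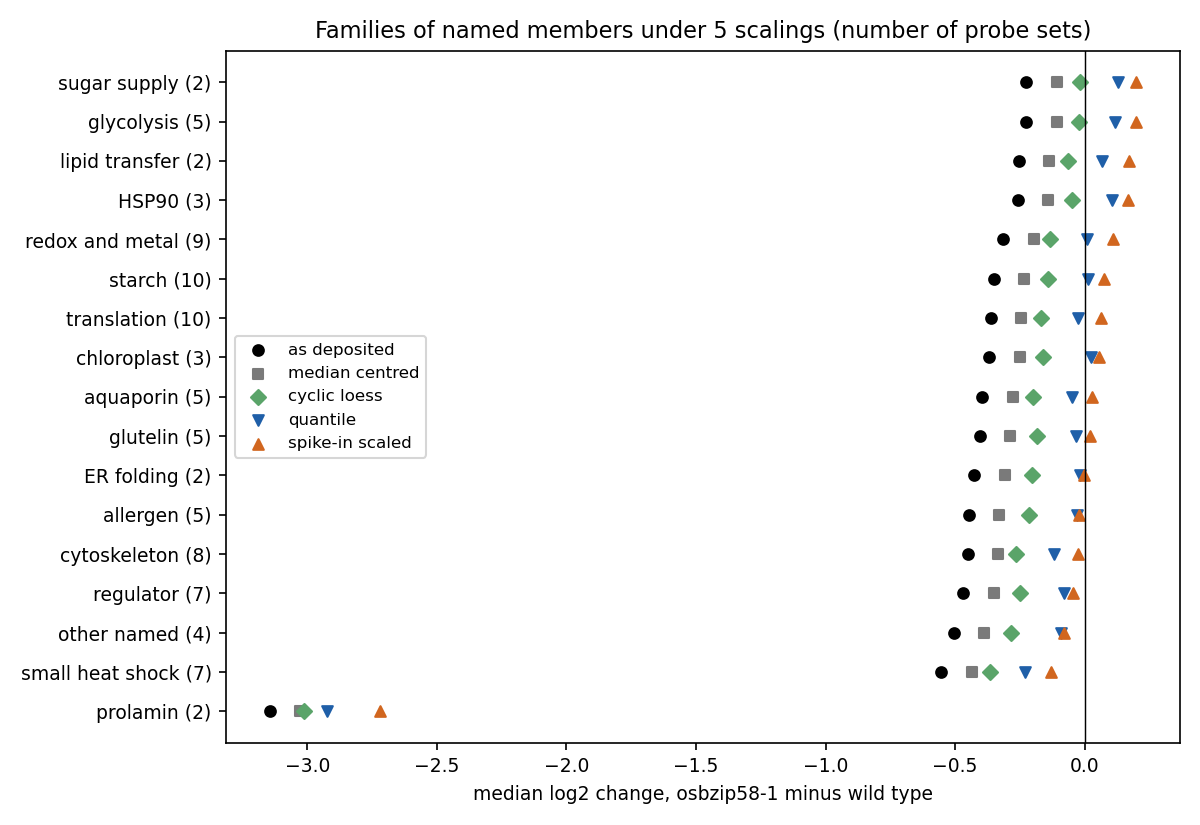
Median log2 change, osbzip58-1 minus wild type (x axis), of each family of named members (y axis, number of probe sets in brackets) as deposited and after 4 other scalings of the arrays. The markers of most families move across or up to 0 on the quantile and spike-in scales, while prolamin stays below -2.5 on every scale. The small heat shock median stays below 0 on every scale, at -0.13 or lower. The medians of the ER folding, allergen, cytoskeleton, regulator and other named families also stay below 0 on every scale. Of these, ER folding reaches -0.0012 on the spike-in scale.

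The remaining members of the 10 brightest showed the band. Only Os.22346.2.S1_x_at among them was tied to a named gene, as it matches GLUA1 and another gene. LOC9266083 at rank 4 fell by 0.44 (adjusted p = 0.0168), with 15.74, 15.75 and 15.79 in wild type and 15.28, 15.33 and 15.34 in the mutant. The genotypes stood apart, and the mutant arrays were close to each other. LOC4352868 at rank 5, LOC4334398 at rank 6, and Os.11519.2.S1_x_at, Os.22346.2.S1_x_at and Os.12237.1.S1_a_at at ranks 8, 9 and 10 differed by -0.46 to -0.38, with adjusted p-values between 0.0697 and 0.115. Of the 10 brightest in wild type, 7 were also among the 10 brightest in osbzip58-1.

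Among the members, probe sets of 1 gene or 1 stem mostly had changes of similar size but often differed in their call. Of 27 genes with 2 or more members, 25 had changes that lay within 0.25 of each other, and the median range within a gene was 0.079. In 11 of the 27 some members passed and others did not. LOC9270227 held 5 members, with changes from -0.87 to -0.38, of which 1 passed. Stems with 3 or more members numbered 7. Os.12625, with REFA1 and probe sets of several genes, had 5 members with changes from -0.40 to -0.30 and 1 call. Os.11244 (Wx) and Os.22169 (Sbe1) had 4 each, and Os.5529 (RAG2), Os.11489 (LOC9270227), Os.18337 (LOC4324532) and Os.12460 (LOC4333148) had 3 each. Os.12460 had 2 calls and changes from -0.45 to -0.33. Os.11489 ranged from -0.42 to -0.38 and Os.18337 from -0.27 to -0.11, without a call.

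The spread between arrays was larger in the mutant. The median SD of a member was 0.0645 in wild type and 0.167 in osbzip58-1, and 266 of 300 members had the larger SD in the mutant. Mutant replicate 1 was the lowest mutant array for 251 members, replicate 3 for 40 and replicate 2 for 9. Among the 12 falls of more than 2-fold, replicate 1 was lowest in 10. What set this array apart was not tested.

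The shift grew with brightness. The median change was -0.40 for the first 100 ranks, -0.35 for the second 100 and -0.31 for the last 100, and the fall was called for 30, 34 and 30 members. For the next 300 probe sets it was -0.22, with 70 lower and 1 higher of 300. It was -0.15 for the 400 after those and -0.083 for the 1000 that followed. After quantile normalization, which takes out differences that follow signal level, the 6 medians lay between -0.022 and 0.015.

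The members held a smaller share of the summed signal in osbzip58-1. The share of the summed unlogged signal of all rice probe sets, which does not depend on an array's scaling factor, was 20.2%, 20.3% and 20.6% on wild type arrays 1 to 3. It was 15.1%, 17.7% and 17.0% on mutant arrays 1 to 3. Every mutant array was below every wild type array, with means of 20.4% ± 0.249 and 16.6% ± 1.31 (SD, n = 3 each), a difference of -3.77 percentage points. The 12 large falls went from 0.885% to 0.234% and so made up -0.651 points of it, while the other 288 members went from 19.5% to 16.4%. The next 300 probe sets held 10.9% and 9.89%. The 300 brightest of each array's own values, which shows the same measure without a choice on wild type, held 20.4% in wild type and 17.2% in the mutant. After quantile normalization the difference of the members' share was -0.682 points, and after cyclic loess -2.21.

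**Figure D4:**
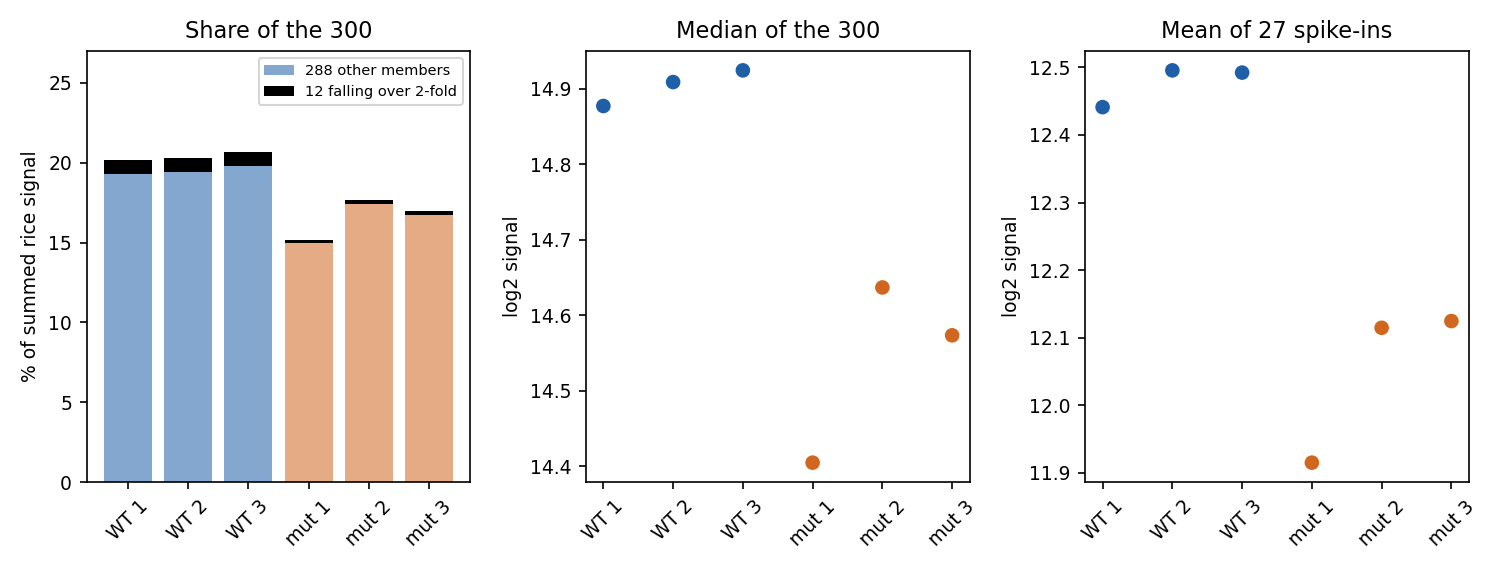
Share of the summed rice signal held by the 300 members in percent (left, with the 12 members that fell over 2-fold in black), median log2 signal of the 300 (middle) and mean log2 signal of the 27 hybridisation spike-ins (right) on each array, wild type (WT) in blue and osbzip58-1 (mut) in orange. All 3 measures are lower on each mutant array, and mutant replicate 1 is lowest in all 3.

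The shift was also read with members chosen on other values. With 300 members chosen on 1 wild type array, the other wild type arrays differed from the chosen one by a median of 0.026, 0.0069 and -0.061 for arrays 1 to 3. These differences also hold the arrays' own levels, with member medians of 14.88, 14.91 and 14.92. They therefore cannot isolate the effect of the choice. Against those other wild type arrays the mutant differed by -0.38, -0.37 and -0.34. Chosen on the mutant mean, which favours the opposite direction, the 300 brightest had a median change of -0.31. In the fits without the wild type array used for the choice, 29, 49 and 20 members were lower and 0 higher. Of all tested probe sets 1.21%, 1.74% and 0.784% fell in those fits.

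The order of brightness was largely kept. Of the 300 members, 257 were also among the 300 brightest of osbzip58-1, and the median member moved by 25 ranks. The 300 brightest of 1 wild type array shared 280, 276 and 283 with the 300 brightest of the mean of the other 2 wild type arrays, and 254, 256 and 251 with those of the mutant mean. Between single arrays, pairs within wild type shared 273 to 282, pairs within the mutant 264 to 269, and pairs across the genotypes 244 to 256, so the counts across genotypes lay below both ranges.

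Of the 43 members that left, 28 came from the last 100 wild type ranks, 36 fell in the test and 11 were among the 12 large falls. The twelfth, Os.8177.1.S1_a_at, stayed inside. Among all members 94 fell in the test, as did 3.13% of all tested probe sets. Leaving was read from the same wild type and mutant values as the fit, which by itself favours falls. The counts of falls among the members that left are therefore only a description. Beyond mutant rank 1000 went 7 members, which were PROLM25 with both probe sets, LOC4328876, LOC9271122, and the probe sets at wild type ranks 7, 76 and 278. The last of these was at mutant rank 9688.

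**Figure D5:**
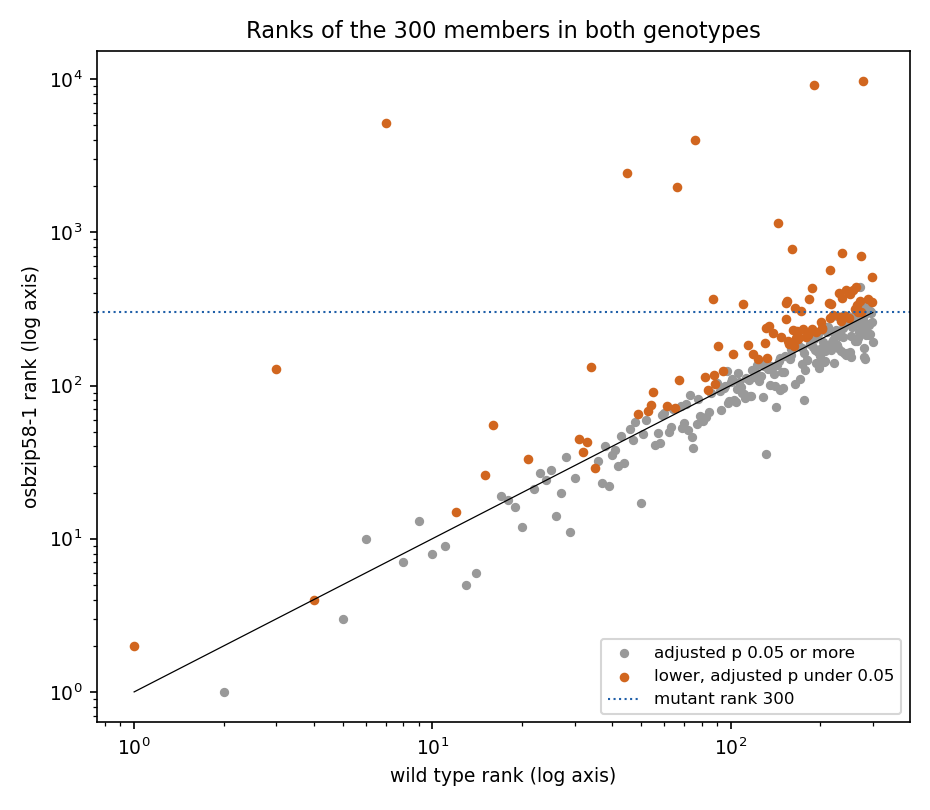
Rank in osbzip58-1 (y axis) against rank in wild type (x axis) for the 300 members, both on log axes, with orange points for members that fell in the test. The solid line marks equal ranks and the dotted line mutant rank 300. Of the 43 members above the dotted line, 7 lie beyond rank 1000, and 257 members lie on or below it.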

How the data were processed

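The deposited values are log2 signals, 1 per probe set and array, made with MAS5 per the submitters' processing notes (version, background handling and any filter not given in the sources used here). After undoing the log2, the 2% trimmed mean was about 500 on each array. Values were used as deposited. Tested were 34883 probe sets at or above the 40th percentile of an array on 3 or more of 6 arrays, with limma 3.58.1 in R 4.3.3 (trend of the variance on the signal, two-sided, Benjamini-Hochberg over all tested). The fit was tested on simulated data. Changes are mutant minus wild type. The members and lists were chosen with earlier results of these data known. Gene names came through the platform annotation, with names from symbols or synonyms of the RefSeq table of ASM3414082v1: 22436 rice probe sets had 1 gene, 95 several and 34663 none. Named in the text were the 10 brightest members, stems with 3 or more members, the largest falls, both probe sets at the border of the 300, and members of lists of glutelins, prolamins, allergens, starch synthesis, endoplasmic reticulum folding, regulators, starchy endosperm, embryo and green tissue. Other families were grouped, and their genes named, after the values were seen, as were the further falls over 2-fold and the probe sets that entered the mutant's 300. Genes on the lists without a matching synonym were not analysed here, and probe sets that match several genes were left out of the list counts. Alternatives were other filters, scalings, variance models, a replicate block, other choices of members, and leaving out arrays or _x_at and _s_at probe sets. Plots used matplotlib 3.10.9.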

Additional observations from a re-analysis of the deposited data

How the results depend on the processing

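The count of 94 members lower and 0 higher kept its direction in most settings, but its size did not hold. It was 58 without the filter, where 912 of all 57194 probe sets fell. It was 27 lower and 4 higher after quantile normalization, 32 lower after median centring and 21 lower and 27 higher on the spike-in scale. Cyclic loess gave 44 lower and a fit without a variance trend 1 lower. The shares of all tested probe sets in these other settings are given above. Leaving out 1 array gave 22 to 127 lower and 0 higher. The 127 came without mutant replicate 2, where 758 of all 33276 tested probe sets fell. The 300 chosen on 1 wild type array and fitted on the others gave 29, 49 and 20 lower, the 300 chosen on the mutant mean 58 lower and 3 higher, the 100 brightest 30 lower, and the 500 brightest 143 lower and 1 higher. The 60th percentile filter, the robust fit, leaving out shared-probe classes, the mean of all 6 arrays and 1 member per stem stayed within 1.5 times, at 120, 119, 92, 75 and 76 lower. Of all tested probe sets, 1313 of 23142 fell with the 60th percentile filter, 1202 of 34883 in the robust fit and 907 of 28887 without shared-probe classes. The replicate number as a block gave 57 lower, where 913 of all 34883 tested probe sets fell. The deviations of same-numbered arrays correlated at 0.029, -0.033 and -0.015, and those of differently numbered arrays at -0.050 to 0.064. These values showed no pairing by number but cannot exclude one. The numbers are those of the source labels, and the titles of the mutant arrays carry other numbers. The members' median of -0.37 was -0.017 after quantile normalization, -0.17 after cyclic loess and 0.058 on the spike-in scale, where the sign turned. Leaving out 1 array gave -0.43 to -0.28. The share difference of -3.77 points was -0.682 after quantile normalization, -2.21 after cyclic loess and -1.97 for the 100 brightest. Of 100 and 500 brightest, 84 and 438 stayed among as many in the mutant. Of 47 named falls, between 16 and 46 kept their call in each fit that left out 1 array. On the spike-in scale, where 26.1% of all tested probe sets rose and 0.972% fell, 15 of 142 named probe sets turned sign with a change of call. No longer called were PIP2-1 at 0.018, Os.12625.6.S1_x_at (REFA1) at 0.021, PETE at 0.013 and Os.12460.2.S1_x_at at 0.030. Called as rises were HSP81-1 at 0.27, TOC75 at 0.26, Os.18337.1.S1_at and Os.18337.1.S1_x_at at 0.31 and 0.30, MIF1 and PIP1-2 both at 0.33, RPS27AA at 0.31, RPL39B at 0.35, NFYB1 at 0.28, TUBB5 at 0.33 and Os.3350.1.S2_a_at at 0.40. That scale moves every value of an array by 1 amount. The cause of the other differences was not tested.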

Other observations

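Of 43 probe sets that took the place of the members that left the 300 brightest in osbzip58-1, 3 rose in the limma fit and 0 fell. Of all tested probe sets 3.2% rose and 3.13% fell. Entering was read from the same wild type and mutant values as the fit, which by itself favours rises. These counts are therefore only a description. Os.8385.2.S1_at, of LOC4348123, had 14.03, 13.29 and 13.77 in wild type and 14.47, 14.45 and 14.65 in the mutant, moved from rank 672 to rank 157 and rose by 0.83 (adjusted p = 0.022). OsAffx.7265.1.S1_at, with no gene in the annotation, rose by 0.71 (adjusted p = 0.00618) from rank 755 to rank 248. Of the 43, 41 came from the next 300 wild type ranks, and their median change was -0.00068 on the deposited scale.

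Probe sets of 1 gene had opposite signs for FBA3, a fructose-bisphosphate aldolase of glycolysis. Os.8999.3.S1_x_at, outside the members at rank 454, had 14.11, 14.02 and 14.05 in wild type and 14.35, 14.46 and 14.50 in the mutant, and rose by 0.38 (adjusted p = 0.0352), a call that 8 of 16 fits made. The member probe set of the same gene differed by -0.31 (adjusted p = 0.102). The difference between the 2 probe sets was not tested.

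Outside the members, probe sets of the listed storage protein and starch genes gave mixed results. Of the tested ones 0 of 1 for glutelins, 1 of 2 for allergens and 2 of 8 for starch synthesis fell, SSI among the last, and 0 rose. A RAG2 probe set outside the members, Os.5529.5.A1_at, fell from 8.71 to 7.43 (log2 change -1.28, adjusted p = 0.0172). A Sbe1 probe set, Os.22169.1.S2_at, fell from 9.92 to 8.72 (log2 change -1.20, adjusted p = 0.0437), a call that 8 of 17 fits made. Dim probe sets that did not pass were GLUA2 Os.5151.1.S1_at at 0.011, RAG1 Os.19989.1.S1_at at -0.69, Wx Os.38414.1.S1_at at -0.42, Sbe1 Os.22169.2.S1_at at -0.75 and ALK Os.5738.2.A1_at at 1.5, with adjusted p-values from 0.248 to 0.984. The 3 brighter RAG2 members differed by -0.48 to -0.45, and the 4 Sbe1 members by -0.48 to -0.26.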
